A study of Mus musculus with 4 samples.

Results

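The genes described are those of the insulin-like growth factor (IGF) system: the ligands Igf1 and Igf2, the receptors Igf1r, Igf2r and Insr, and the binding proteins Igfbp2, Igfbp3, Igfbp4, Igfbp5 and Igfbp7. They are 10 of the 55487 genes listed in the deposited tables, found by symbol, and Igf1 was picked because it was lower in the knockout. Its values across the genotypes are therefore a description without a test. The genes were measured by RNA-seq in mouse satellite cells, the muscle stem cells that express Pax7, taken directly after isolation. The 4 libraries were 2 from mice with a conditional knockout of Rbfox2 (Rbfox2 cKO) and 2 labelled Control. In the cKO, floxed Rbfox2 is deleted by Pax7CreERT2 after tamoxifen, so deletion is meant for Pax7-expressing cells, and a Rosa26 EYFP reporter marks the recombined cells. Whether the Control mice carried the Cre or the reporter, or received tamoxifen, and the age and sex of the animals, are not stated in the labels or the design text. Separate animals are not stated for the libraries. The p-values thus reflect the variation among these 4 samples alone, and that variation may be technical.

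IGF1 and IGF2 are small secreted growth factors that signal mainly through the receptor tyrosine kinase IGF1R, which is related in structure to the insulin receptor. Signalling passes through adaptor proteins to the PI3K, Akt and mTOR pathway and to the Ras and ERK pathway. In muscle, IGF signalling promotes the proliferation and differentiation of myogenic cells and the growth of fibres. IGF2R binds IGF2 and carries it to lysosomes for destruction. The binding proteins hold IGFs outside the cell, extend their life and limit or aid their access to receptors.

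The library totals ran from 68884091 to 101997422 estimated counts. The library cKO 1 had the smallest total and the highest median level over all genes, 0.771 TPM, against 0.312 TPM in cKO 2 and 0.392 and 0.437 TPM in Control 1 and 2. TPM is a relative level corrected for transcript length, whereas CPM is the count scaled to the normalised library size, with no correction for length. Satellite cell markers were abundant, with sums over 12 genes of 17015 and 17214 TPM in cKO and 17393 and 16768 TPM in Control, most of it from Sdc4. Of the 12 markers 0 passed, 4 were positive and 8 negative. Pax7, the transcription factor that defines these cells, stood at 15.9 and 13.5 TPM in cKO, against 7.90 and 6.995 TPM in Control. The groups did not overlap, and 23.4% of all genes tested were likewise higher in both cKO libraries in TPM. The log2 fold change of Pax7 was 0.84 (SE 0.33, adjusted p = 0.556 by edgeR), the highest of the 12 markers. Pax7 was chosen for mention with its values known. The targeted gene Rbfox2 stood at 20.9 and 12.2 TPM in cKO, against 49.5 and 27.4 TPM in Control. Its counts fell (log2 fold change -1.76, SE 0.35, adjusted p = 0.000252, edgeR quasi-likelihood test). Leaving out any 1 of the libraries ended the call, at values of -2.61 to -1.04.

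RefSeq promoter windows on GRCm38.p6 were found for 9 of the 10 genes, 13 windows in all. The 250 bases before the RefSeq start are shown for Igf1r, the main signalling receptor, and for Igfbp7, the gene whose counts passed the test. The bases of the Igf1 window (chr10:87860861-87861110, plus strand) are not shown because the window overlaps an annotated exon. Capitals mark GGGCGG, the GC box, on either strand. The Igf1r window is chr7:67952007-67952256 on the plus strand, and the Igfbp7 window is chr5:77408046-77408295 on the minus strand. The Igf1r gene start in the annotation used below for positions, 67952827, lies downstream of its window and does not adjoin it.
Igf1r: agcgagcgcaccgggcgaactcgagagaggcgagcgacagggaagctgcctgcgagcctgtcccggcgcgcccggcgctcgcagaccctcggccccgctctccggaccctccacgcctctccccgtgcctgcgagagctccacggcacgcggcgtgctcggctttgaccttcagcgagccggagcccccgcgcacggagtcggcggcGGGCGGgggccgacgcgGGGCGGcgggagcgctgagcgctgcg
Igfbp7: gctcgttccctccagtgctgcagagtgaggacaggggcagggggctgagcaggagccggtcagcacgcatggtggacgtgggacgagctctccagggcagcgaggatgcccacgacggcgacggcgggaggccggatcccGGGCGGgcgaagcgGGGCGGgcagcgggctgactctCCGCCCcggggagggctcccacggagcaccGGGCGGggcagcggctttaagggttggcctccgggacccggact

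The Igf1r window held 42 CG dinucleotides and the Igfbp7 window 26, against a median of 6 over 32851 mouse windows of the same length, chromosome 18 left out. The Igf1 window held 5. GGGCGG was present on either strand in 6 of the 13 windows of these genes, 2 times in that of Igf1r and 4 times in that of Igfbp7, and in 32.7% of all windows. The TATA letters TATAAA were in 1 of the 13 windows, that of Igfbp4, and in 12.4% of all windows. CCAAT was in 2 of the 13, those of Igf1 and of 1 of the 4 Igf2 windows, and in 33.8% of all. No match in the windows printed overlapped another. These matches describe the letters only, and nothing in the data measured binding at them.

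The IGF genes differed widely in level. In cKO libraries the order by mean TPM was Igfbp7, Igfbp5, Igf2r, Igf1r, Igfbp4, Igf2, Insr, Igfbp3, Igf1 and Igfbp2. In Control libraries it was Igfbp5, Igf2r, Igfbp4, Igf1r, Igfbp7, Igf2, Igfbp3, Igf1, Insr and Igfbp2. Neighbours whose libraries overlapped, and whose order is therefore not fixed, were in cKO Igfbp7 with Igfbp5, Igf2r with Igf1r, Igf1r with Igfbp4, and Insr with Igfbp3. In Control they were Igf2r with Igfbp4, Igfbp4 with Igf1r, Igf1r with Igfbp7, Igf2 with Igfbp3, and Igf1 with Insr. The mean TPM over all libraries was above that of 91.2% of the genes tested for Igfbp5, 75.6% for Igf1 and 32.5% for Igfbp2. The 10 genes are annotated as protein coding on GRCm38. Igf2 lies at chr7:142650766-142666816 on the minus strand. Among the receptors, Igf1r lies at chr7:67952827-68233668 on the plus strand, Igf2r at chr17:12682406-12769664 on the minus strand and Insr at chr8:3122061-3279617 on the minus strand. Igfbp2 (chr1:72824503-72852474, plus strand) and Igfbp5 (chr1:72857932-72874884, minus strand) are neighbours that point towards each other. Igfbp3 lies at chr11:7206086-7213923 on the minus strand and Igfbp4 at chr11:99041244-99054392 on the plus strand. All 10 genes passed the filter on low counts, and the plot of TPM by library shows their levels.

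**Figure D1:**
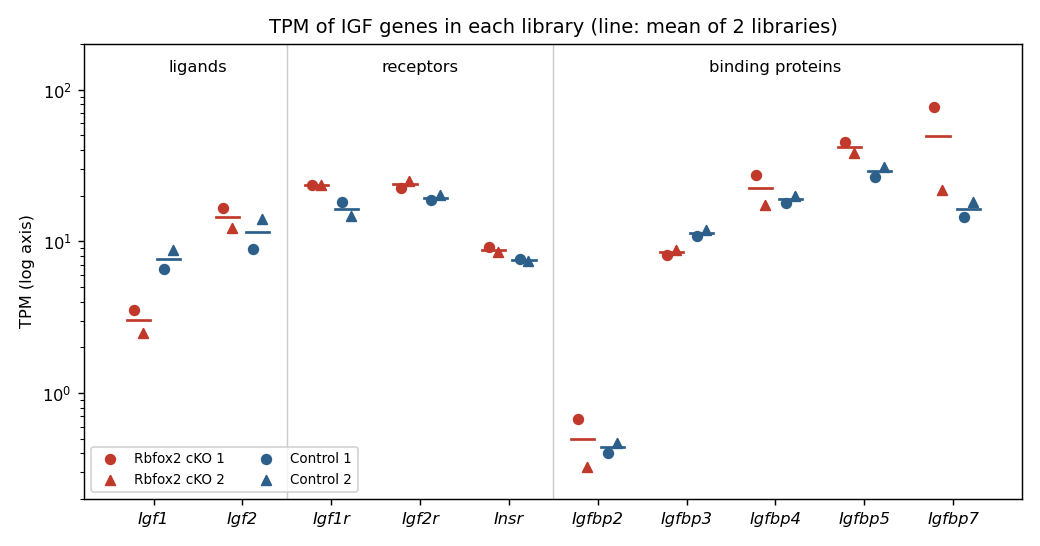
TPM (log axis) of the 10 IGF genes in each library, cKO in red and Control in blue, with a line at the mean of the 2 libraries of a group. Igf1 lay at 3.55 and 2.47 TPM in cKO, below the 6.54 and 8.72 TPM of Control, and Igfbp7 was far higher in cKO 1, at 76.8 TPM, than in any other library.

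Igf1, the ligand made by liver and locally by many tissues, was lower in both cKO libraries than in both Control libraries, on each scale. It stood at 3.55 and 2.47 TPM in cKO 1 and 2, against 6.54 and 8.72 TPM in Control 1 and 2. The mean was 3.01 ± 0.76 TPM in cKO and 7.63 ± 1.54 TPM in Control (SD, n = 2 each). The groups did not overlap, and the libraries within each group were closer to each other than to the other group. On the count scale Igf1 had 736 and 627 estimated counts in cKO and 1975 and 2272 in Control, or 8.45 and 7.03 CPM in cKO against 24.9 and 27.6 CPM in Control. The log2 fold change of counts was -1.76 (SE 0.33), and no p is given because this contrast was what picked the gene. Its size exceeded that of 98.7% of the genes tested, which is also a description. Over the 15 alternatives, which reuse these libraries, it ran from -1.89 to -1.11, again a description of the values that picked the gene.

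Igf1 (ENSMUSG00000020053.18) lies at GRCm38 chr10:87858265-87937042 on the plus strand, with 8 annotated transcripts of 510 to 7052 nucleotides. None of its 50-base sequences occurs in a transcript of another annotated gene. The antisense gene Igf1os overlaps it, but their annotated exons do not touch, and had 85 and 34 counts in cKO and 55 and 54 in Control. The ratio of a gene's count to its TPM gives the mean length of the transcripts to which coverage was assigned. For Igf1 this implied length was 5409 and 4434 nucleotides in cKO 1 and 2, against 6387 and 5378 nucleotides in Control 1 and 2. The groups overlapped, and library 2 had the lower value in each. With counts rebuilt from TPM at 1 length per gene, an alternative chosen after seeing the data, the log2 fold change of Igf1 was -1.52 in place of -1.76.

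Igf2, the ligand most abundant in fetal life and in differentiating myoblasts in culture, showed no difference between the genotypes that passed the test. It stood at 16.6 and 12.3 TPM in cKO and 8.86 and 14.1 TPM in Control, and the groups overlapped. The log2 fold change of counts was 0.011 (SE 0.32), with adjusted p = 1.00 by the edgeR quasi-likelihood test. It turned to -0.40 without Control 1 and -0.25 without cKO 2, and was 0.54 without Control 2 and 0.19 without cKO 1. Of its 50-base sequences 62.1% are shared, mainly with Gm49394, a gene on the same strand that was listed at 0 in all 4 libraries. The antisense gene Igf2os, whose exons touch those of Igf2, had 48 and 31 counts in cKO and 28 and 21 in Control. Igf1 made up 17.6% and 16.8% of the summed ligand TPM in cKO, against 42.5% and 38.3% in Control. That share rests on the gene picked for its difference and is a description.

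The receptors did not pass the test. Igf1r stood at 23.7 and 23.6 TPM in cKO, against 18.1 and 14.7 TPM in Control. Igf2r stood at 22.5 and 24.9 TPM in cKO, against 18.7 and 20.1 TPM in Control. Insr, the insulin receptor, stood at 9.18 and 8.44 TPM in cKO, against 7.65 and 7.36 TPM in Control. On the TPM scale the cKO libraries were both above those of Control for each of the 3, an arrangement that 23.4% of all genes tested had (9.27% had the opposite one), and the median log2 ratio of TPM over all genes tested was itself 0.20. On the CPM scale the groups overlapped for all 3 receptors.

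The log2 fold change of counts was 0.34 (SE 0.34) for Igf1r, 0.14 (SE 0.34) for Igf2r and 0.29 (SE 0.32) for Insr, each with adjusted p = 1.00 by the edgeR quasi-likelihood test. The values moved with the libraries used. Without cKO 1 they were 0.67, 0.46 and 0.76, with adjusted p = 0.0264 for Igf1r, 0.163 for Igf2r and 0.0970 for Insr in the same edgeR test. Without cKO 2 they were -0.14, -0.32 and -0.46. Without Control 1 they were 0.49, 0.11 and 0.045, and without Control 2 they were 0.17, 0.15 and 0.56. Each such fit leaves 1 library in a group, which is then assumed to vary as the other group does.

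The implied mean transcript length of Insr split by library number and not by genotype. It was 2494 and 4100 nucleotides in cKO 1 and 2, and 2384 and 3599 nucleotides in Control 1 and 2, for a gene with 5 annotated transcripts of 551 to 9355 nucleotides. Igf2 split in the same way, at 3064 and 3639 nucleotides in cKO 1 and 2 and 3279 and 4038 nucleotides in Control 1 and 2. Igf1 split by number in the opposite direction. It was 5409 and 4434 nucleotides in cKO 1 and 2, and 6387 and 5378 nucleotides in Control 1 and 2. How often genes in general split by number was not counted. In both genotypes the library codes in the labels share their first part and carry L01 for number 1 and L02 for number 2, and the labels do not say what these mark. The implied length of Igf2r was between 8267 and 8674 nucleotides in all 4 libraries. Airn, the antisense RNA known to silence the paternal copy of Igf2r in mouse, overlaps 28354 bases of Igf2r. Only annotated exons were compared, and those of Airn do not touch those of Igf2r. Airn was listed at 94.2 and 116.0 TPM in cKO and 94.6 and 81.0 TPM in Control. It was chosen for mention after its values were seen. The strand setting of the counting is not given, so reads of Airn and of Igf2r within the overlap cannot be told apart.

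**Figure D2:**
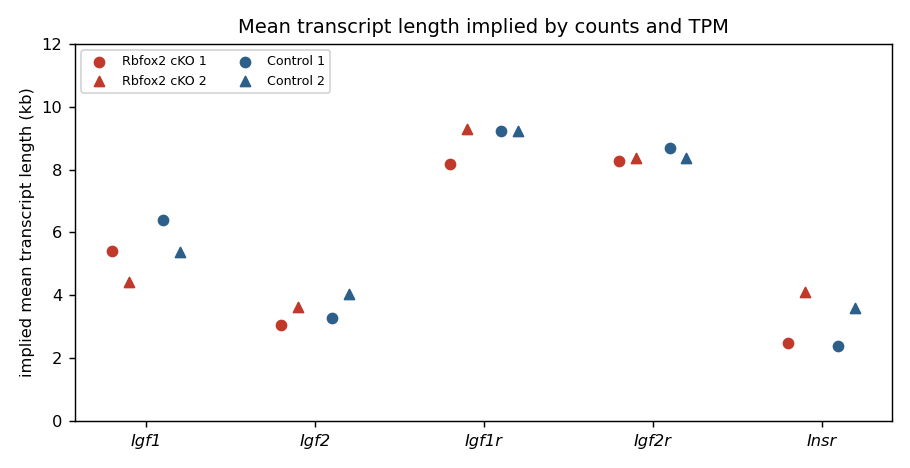
Mean transcript length in kilobases implied by the ratio of count to TPM for the ligands and receptors, cKO in red and Control in blue, circles for library 1 and triangles for library 2 of each group. Insr and Igf2 were longer in library 2 than in library 1 of both groups, and Igf1 was shorter in library 2 of both.

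Among the 5 binding proteins, Igfbp7 rose and the other 4 did not pass. Igfbp7 (ENSMUSG00000036256.13; GRCm38 chr5:77349240-77408041, minus strand) encodes a secreted protein of low affinity for IGFs that is abundant in blood vessels. It stood at 76.8 and 21.8 TPM in cKO 1 and 2, against 14.5 and 18.1 TPM in Control 1 and 2. The groups did not overlap, but cKO 2 lay near the Control libraries and cKO 1 far above all of them. In CPM it averaged 26.7 ± 15.6 in cKO and 10.996 ± 1.91 in Control (SD, n = 2 each). The log2 fold change of counts was 1.28 (SE 0.33), with adjusted p = 0.0225 by the edgeR quasi-likelihood test. It rested on cKO 1: without that library the log2 fold change was 0.52 (adjusted p = 0.3499 in edgeR), and without cKO 2 it was 1.71 (adjusted p = 0.00188). Of the 15 alternatives 12 lost the call, with adjusted p from 0.00188 to 1.00 over all of them, and the direction stayed positive in each.

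Igfbp7 is a gene of vessel walls, so markers of those cells are given beside it. Of 12 endothelial markers 0 passed the test, 10 had a positive log2 fold change, and 7 had both cKO libraries above those of Control in CPM, against 18.0% of all genes tested. Their summed level was 392.3 and 349.5 TPM in cKO, against 273 and 306 TPM in Control, and none was at 0 in any library. Of 7 mural cell markers 0 passed, 4 were positive and 3 negative. In CPM both cKO libraries were above those of Control for 1 of the 7 and below for 1. The mural sum was 164 and 136 TPM in cKO, against 148 and 141 TPM in Control. The part of endothelial and mural cells in the Igfbp7 value was not tested. In bulk RNA, fewer or more cells of a type cannot be told apart from less or more RNA per cell. The neighbouring Polr2b overlaps the end of Igfbp7 by 85 bases on the opposite strand and had 5095 and 7789 counts in cKO and 8511 and 8428 in Control, while 2.99% of the 50-base sequences of Igfbp7 are shared.

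Igfbp5, the binding protein abundant in muscle and bone, was the highest of the IGF genes in Control. It stood at 44.9 and 38.3 TPM in cKO, against 26.7 and 31.0 TPM in Control, so the groups did not overlap. In TPM 23.4% of all genes tested had this arrangement, and the median log2 TPM ratio over all of them was 0.20. On counts the log2 fold change of Igfbp5 was 0.38 (SE 0.35, adjusted p = 1.00 in edgeR). It stayed positive in all 15 alternatives, which reuse these libraries, from 0.14 to 0.54. Igfbp3, the main carrier of IGFs in serum, stood at 8.14 and 8.82 TPM in cKO, against 10.9 and 11.9 TPM in Control. Both cKO libraries were lower, as for 9.27% of all genes tested in TPM. The log2 fold change of Igfbp3 was -0.55 (SE 0.32, adjusted p = 1.00 in edgeR). It was -0.98 without cKO 2, where it passed (adjusted p = 0.0292 in edgeR), and -0.24 without cKO 1.

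Igfbp4, which binds IGFs until it is cleaved by the protease PAPP-A, stood at 27.5 and 17.5 TPM in cKO and 17.96 and 19.99 TPM in Control. The groups overlapped, and the log2 fold change was 0.058 (SE 0.33, adjusted p = 1.00 in edgeR). Igfbp2, a binding protein with an integrin-binding motif, was close to the median level of all genes, at 0.673 and 0.324 TPM in cKO and 0.405 and 0.469 TPM in Control. It had only 22 to 30 counts in a library, and its log2 fold change of 0.10 had an SE of 0.75. A difference would have had to be well above this SE to pass the test at this depth. Igfbp7 made up 48.6% and 25.2% of the summed TPM of the 5 binding proteins in cKO, against 20.6% and 22.3% in Control. Without Igfbp7 the sum was 81.2 and 64.9 TPM in cKO, against 56.0 and 63.3 TPM in Control.

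**Figure D3:**
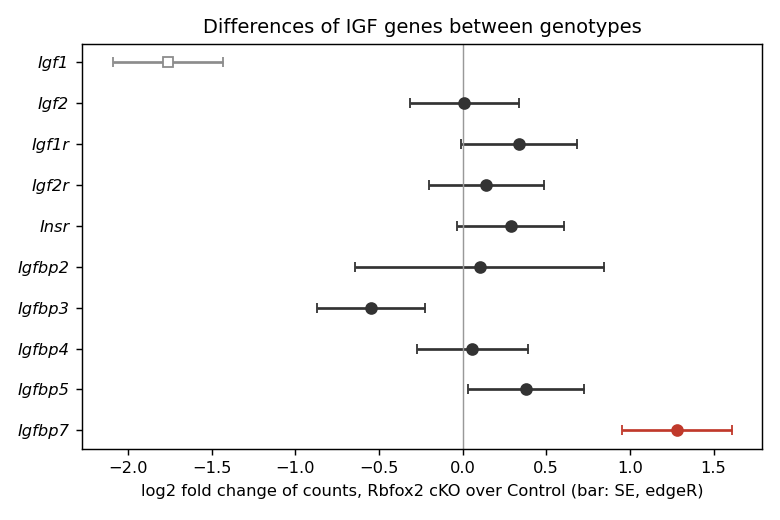
Log2 fold change of counts, Rbfox2 cKO over Control, for the 10 IGF genes, with bars of 1 SE from edgeR and 2 libraries in each group. Igfbp7 in red passed the threshold, Igf1 as an open square at -1.76 was picked on this contrast and has no test, and the other 8 in black lay between -0.55 and 0.38.

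Across the 10 genes, Igf1 aside, 1 was called higher and 0 lower at an adjusted p under 0.05, against 0.551% of the 38143 genes tested, called in either direction. In CPM the cKO libraries were both above those of Control for 2 of the 10, Igfbp5 and Igfbp7, against 18.0% of all genes tested. They lay below for 2, Igf1 and Igfbp3, against 13.3% of all genes. The median log2 fold change was 0.12 over the 10 genes and 0.06 over all genes tested. A share read from so few genes, of which 1 was picked for its value, says nothing particular of the family.

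**Figure D4:**
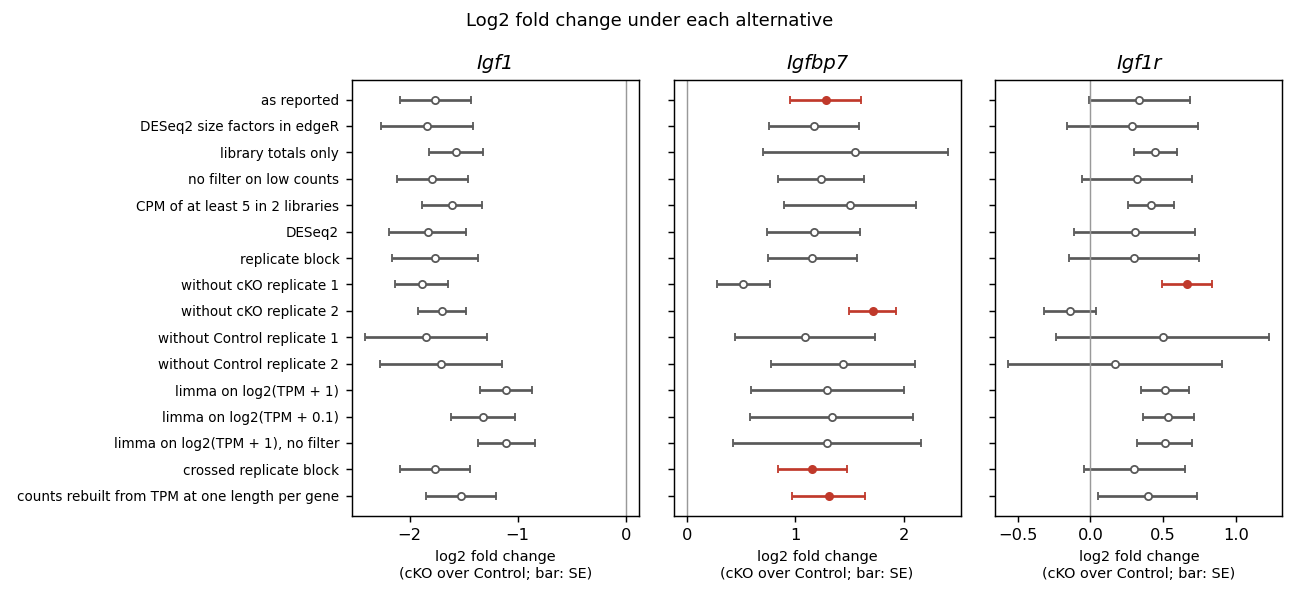
Log2 fold change (cKO over Control, bars of 1 SE) of Igf1, Igfbp7 and Igf1r as reported and under each alternative, with filled red points where the adjusted p was under 0.05; Igf1 has no test. Igf1 lay between -1.89 and -1.11, Igfbp7 was 0.52 without cKO 1, and Igf1r was 0.67 without cKO 1 and -0.14 without cKO 2.

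The other genes of the pathway came from a list of 75, from secreted regulators to the kinases downstream, all of which were tested. Stc2 fell and the other 74 did not pass, that is 0 higher and 1 lower, against 0.364% and 0.186% of all genes tested. At an unadjusted p under 0.05 there were 5 of the 75, against 4.83% of all genes. The median log2 fold change was 0.13, and 45 of the 75 were positive, against 55.0% of all genes tested. Without cKO 1 the number called was 7, of which 4 were higher, beside 896 of 39712 genes in the whole fit, of which 606 were higher. Without cKO 2 it was 13, all lower, beside 2267 of 42059 genes in the whole fit, of which 2016 were lower. It was 0 without either Control library.

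Stc2, a secreted glycoprotein that inhibits PAPP-A and so the release of IGF from Igfbp4, was low in all libraries. It stood at 1.81 and 1.08 TPM in cKO, against 2.95 and 3.84 TPM in Control, with 232 and 241 counts in cKO and 538 and 711 in Control. The groups did not overlap. The log2 fold change was -1.52 (SE 0.35), with adjusted p = 0.00426 by the edgeR quasi-likelihood test. The call was kept in 6 of the 15 alternatives, among them those without cKO 1 and without cKO 2, and was lost without Control 1 (-1.70, adjusted p = 0.564) and without Control 2 (-1.36, adjusted p = 1.00) in the same edgeR test. The highest of the 11 secreted regulators was Igfbp6, which prefers IGF2, at 62.4 and 41.5 TPM in cKO and 35.3 and 41.0 TPM in Control. Htra1, a secreted protease that cleaves binding proteins, stood at 17.9 and 17.7 TPM in cKO, against 23.6 and 28.6 TPM in Control (log2 fold change -0.68, adjusted p = 0.942 in edgeR). Both cKO libraries of Htra1 were lower, as for 9.27% of all genes tested in TPM.

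Of 14 receptor relatives and adaptors 0 passed. Shc1, an adaptor that leads to Ras, was the highest at 165 and 145 TPM in cKO and 168 and 150 TPM in Control. Grb10, an imprinted adaptor that restrains both receptor kinases, stood at 71.1 and 77.1 TPM in cKO, against 83.7 and 90.5 TPM in Control (log2 fold change -0.36, adjusted p = 1.00 in edgeR). Of 26 genes of PI3K, Akt and mTOR signalling 0 passed, with log2 fold changes from -0.54 to 1.05. The highest were Rps6, a ribosomal protein phosphorylated downstream of mTOR, at -0.35, and Rheb, the small GTPase that activates mTOR, at -0.30. Rps6 belongs to a family with many processed copies, and its count may be split among them.

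Of 6 FoxO factors and atrogenes 0 passed, with Foxo1 at 0.18 and Foxo3 at 0.23. These transcription factors are kept out of the nucleus by Akt. Of 9 Ras and ERK genes 0 passed, with Map2k1, a kinase that activates ERK, at -0.080. Of 5 genes of the growth hormone axis, which drives Igf1 transcription in liver, 0 passed and all 5 were positive, from 0.22 to 0.66, where 55.0% of all genes tested were positive. Ghr, the growth hormone receptor, stood at 48.6 and 44.5 TPM in cKO, against 36.1 and 30.7 TPM in Control, and Stat5a, its transcription factor, at 47.0 and 38.9 TPM in cKO against 31.7 and 29.9 TPM in Control. Both cKO libraries were higher for each of these in TPM, as for 23.4% of all genes tested and beside the median log2 TPM ratio of 0.20 over all of them, while in CPM the groups overlapped for Ghr. Of H19 and the 3 genes for Igf2 mRNA-binding proteins 0 passed. Igf2bp2 stood at 30.7 and 31.1 TPM in cKO, against 23.6 and 23.8 TPM in Control, and Igf2bp3 at 1.15 and 1.32 TPM in cKO against 0.824 and 0.511 TPM in Control.

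Igf1 in muscle is also made by fibro-adipogenic progenitors and macrophages, so their markers are given beside it. Of 13 progenitor markers 0 passed, 9 were positive, and their sum was 782 and 632 TPM in cKO, against 653 and 764 TPM in Control, so the groups overlapped. Of 12 macrophage markers 0 passed, 10 were positive, and their sum was 60.5 and 45.8 TPM in cKO, against 31.7 and 34.6 TPM in Control. No marker of either list was at 0 in any library. The macrophage sum was higher in both cKO libraries, and the part of these cells in the Igf1 values was not tested. Most markers of mature muscle fibres had the same sign as Igf1, and they were chosen for mention after their values were seen. Of 8 none passed (adjusted p = 1.00 each, edgeR), 6 were negative and 2 positive, and the median log2 fold change was -0.45. For 5 of the 8 the cKO libraries were both below those of Control in CPM, against 13.3% of all genes tested. Their sum was 71.6 and 44.2 TPM in cKO, against 71.5 and 67.5 TPM in Control, none was at 0 in any library, and their part in the Igf1 values was not tested either. Of 6 erythroid markers 5 rose, against 0.364% of all genes called higher. Their sum was 1799 and 1471 TPM in cKO, against 337 and 763 TPM in Control. The erythroid list includes related globin genes, whose shared sequence was not measured, and these calls were not followed through the alternatives. In the remaining lists 0 passed, and 3 of 4 neutrophil, 1 of 6 tenocyte and 1 of 4 Schwann cell markers were negative.

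The genes whose pattern over the 4 libraries was most like that of Igf1 were found by the distance between centred log2(CPM + 1) values, among 7839 other genes with a mean of at least 10 CPM. The nearest 5 were Etohd2 at a distance of 0.329, Phgdh at 0.424, Mmp2 at 0.426, Lamb1 at 0.430 and Fdft1 at 0.451. Etohd2 stood at 5.43 and 3.29 CPM in cKO, against 17.2 and 15.5 CPM in Control, and shares 29.1% of its 50-base sequences, mainly with Tut7. Phgdh, the first enzyme of serine synthesis, stood at 14.1 and 17.5 CPM in cKO, against 43.1 and 57.5 CPM in Control, and shares 47.8%, mainly with Gm7901. Mmp2, a matrix metalloproteinase, stood at 126 and 125 CPM in cKO, against 277 and 325 CPM in Control. Lamb1, a laminin chain, stood at 15.7 and 13.9 CPM in cKO, against 32.9 and 38.9 CPM in Control. Fdft1, an enzyme of cholesterol synthesis, stood at 8.18 and 7.45 CPM in cKO, against 18.7 and 19.8 CPM in Control, and shares 26.5%, mainly with Ctsb. With 4 libraries, likeness of this kind chiefly selects genes that were lower in both cKO libraries by a like amount.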

How the data were processed

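RNA was measured in 2 Rbfox2 cKO and 2 Control libraries. Per the labels' protocols, 10 ng of RNA went into SMART-Seq cDNA and an MGI library kit. GRCm38, StringTie 1.3.6 and HISAT2 2.1.0 are named, per the submitters' processing notes, with no role or order. No source used here gives the strand setting, the annotation release or any filter. The deposited estimated counts held whole numbers and were used without rounding. They matched TPM times transcript length within 1% for 98.7% to 98.9% of single-transcript genes with over 200 counts, so they may derive from transcript coverage. The deposited TPM sum to the same total in each library and keep no depth.

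Counts were compared with edgeR 4.0.16 (R 4.3.3; TMM, filterByExpr, robust quasi-likelihood test) over 38143 genes, with Benjamini-Hochberg adjustment and a threshold of 0.05. Each SE was taken as the absolute log2 fold change over the root of the F statistic. The spread between libraries limits precision (common biological coefficient of variation 0.373). A chi-square over degrees of freedom of 83.5 within cKO and 49.6 within Control showed that the libraries of a group were not the same data. It cannot tell separate animals from repeat libraries of 1 sample. Alternatives used limma 3.58.1 and DESeq2 1.42.0 among others. GENCODE M21 on GRCm38 gave positions, and 55394 of 55487 identifiers matched it without the version. The scripts were tested on simulated counts. The 10 genes and all lists were chosen with earlier results of these data known. The genes named were the 10, Rbfox2, called pathway genes, the 2 with the highest mean TPM in each pathway class and the 5 nearest to Igf1; 1 gene that this rule names is not reported here, and others are marked as chosen after their values were seen.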

Additional observations from a re-analysis of the deposited data

How the results depend on the processing

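Igf1 was negative in all 15 alternatives, which reuse the libraries it was picked on, so this is a description only. Its log2 fold change of -1.76 moved by more than the spread between libraries to -1.57 with library totals only, -1.61 with a CPM minimum of 5, -1.11 in limma on log2(TPM + 1) with and without a filter, -1.32 on log2(TPM + 0.1) and -1.52 with counts rebuilt from TPM. The difference between the group means of log2 TPM, with no pseudocount, was -1.35. Without each library in turn it ran from -1.89 to -1.70. Igfbp7 lost its call at 1.17 with DESeq2 size factors and in DESeq2, 1.55 with library totals only, 1.24 with no filter, 1.504 with a CPM minimum of 5, 1.29 and 1.33 in limma on the TPM with pseudocounts of 1 and 0.1, 1.29 with no TPM filter, and 1.16 with the replicate block. Without each library in turn it ran from 0.52 to 1.71. It kept its call without cKO 2, with counts rebuilt from TPM and with the numbers crossed. Igfbp2 could not be tested with a CPM minimum of 5 or in limma with a filter.

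The number of genes called, 210, was 119 with DESeq2 size factors, 282 with library totals only (74 shared with the 210), 28 with no filter, 14 with a CPM minimum of 5, 93 in DESeq2, 96 with the replicate block, 53 in limma on log2(TPM + 1), 102 on log2(TPM + 0.1), 404 with no TPM filter and 137 with counts rebuilt from TPM. It ran from 51 to 2267 with a library left out. The pathway count of 1 was 0 with library totals only, with no filter, with a CPM minimum of 5, with the replicate block and in all 3 limma fits, and ran from 0 to 13 with a library left out. Library totals only moved the median of all genes to 0.25, from 0.06.

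Reversed signs were near 0 or rested on 1 library. Igf2 was -0.044 with DESeq2 size factors, -0.030 in DESeq2, -0.011 with no filter, and from -0.40 to 0.54 with a library left out. Igfbp4 was -0.016 with DESeq2 size factors, -0.0086 in DESeq2, and from -0.033 to 0.12 with a library left out. Igfbp2 was -0.040 with counts rebuilt from TPM and from -0.042 to 0.21 with a library left out. The ranges were -0.14 to 0.67 for Igf1r, -0.32 to 0.46 for Igf2r and -0.46 to 0.76 for Insr. The cause of the changed signs and calls was not tested.

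The labels do not say what the replicate numbers, which match the L01 and L02 of the library codes, mark. They were therefore not taken to pair the samples. Deviations of same-numbered libraries correlated at -0.24 over 7840 genes, which cannot show that these libraries share no batch. The implied lengths of Insr and Igf2 split by number, and that of Igf1 did so in the opposite direction. The share of all genes that split by number was not counted. The replicate block gave Igf1 -1.76 and Igf1r 0.30. With the numbers crossed, an alternative chosen after seeing the data, 243 genes were called.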
